A study of Mus musculus with 2 samples.

Results

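Heat shock proteins and their co-chaperones were followed in vascular cells flow-sorted from the lungs of old and young mice after pneumonectomy. The set was chosen by gene symbol: small heat shock proteins (Hspb), Hsp70 and Hsp110 proteins (Hspa, Hsph1, Hyou1), Hsp90 proteins, the mitochondrial chaperonin pair (Hspd1, Hspe1), CCT chaperonin subunits (Cct), J-domain proteins (Dnaja, Dnajb, Dnajc), BAG proteins, protein disulfide isomerases (Pdia) and heat shock factors (Hsf). It held 95 genes with 221 probe sets, of 18193 genes with 34945 probe sets that the array annotation ties to a single symbol. The old group was 1 array of lung vascular cells from old C57BL/6J mice, and the young group was 1 array from young mice of the same strain. In both groups the left lung lobe had been resected and the cells came from the right lobes, so unoperated lungs are not part of the comparison. How old the mice were, how many contributed, how long after surgery they were sampled and which markers were sorted on are not stated in the labels. With 1 array per group there was no replicate and no test, and every difference below has no replicate check.

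Chaperones hold proteins in a foldable state. Small heat shock proteins bind unfolded clients without ATP, Hsp70 proteins cycle on and off them with ATP under the direction of J-domain proteins, Hsp110 and BAG proteins release the ADP from Hsp70, and Hsp90 and the ring-shaped chaperonins finish particular clients. Heat and other protein damage release heat shock factors, which induce a subset of these genes within minutes to hours, while many other members are made at all times. The endoplasmic reticulum (ER) has its own set, induced by the unfolded protein response, and Hspb1 is also known from endothelium, where it takes part in actin remodelling.

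Signals are MAS5 intensities scaled so that the median log2 ratio of both arrays was 0, and each gene is given by its brightest probe set. Ratios are old minus young on the log2 scale. A signal under 73.7 units, the median probe set, was treated as unmeasured (the floor), and a gene below it on 1 array has a fold that is a lower bound, which is the value counted in medians. The Actb control probes gave a 3' to 5' signal ratio of 1.32 on the old array and 1.20 on the young array, and the Gapdh control probes gave 0.718 and 0.806. Of 12 endothelial markers, all were measured, and their summed signal was 127412 on the old array against 79756 on the young, with a median log2 ratio of 0.45. They differed in sign, with 8 above 0 and 4 below. On the old array 4 were at least 2-fold up (33.3%, with 16.0% of all genes), led by Robo4 (3.19) and Tek (2.56). Emcn (-1.12) was the 1 marker at least 2-fold up on the young array (8.33%, with 11.3% of all genes). A higher signal from more cells of a type cannot be told apart from more RNA per cell.

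Most chaperone genes were within 2-fold between the arrays, and a few stress-inducible ones were far higher on the old array. Of the 80 chaperone genes measured, 7 were at least 2-fold up on the old array (8.75%), where 16.0% of 12105 measured genes were. A further 6 were at least 2-fold up on the young array (7.50%), where 11.3% of all measured genes were. Of the others, 64 were within 2-fold (80.0%), against 64.2% of all genes, and 3 (Hsf2, Hsf4 and Dnajc22) had only a bound under 2-fold (3.75%, with 8.54% of all genes). The median log2 ratio was -0.01 over the chaperone genes and 0.03 over all genes, and the median absolute ratio was 0.33 and 0.52. Loess scaling gave 8 chaperone genes on the old side (10%, with 16.0% of all genes) and 4 on the young (5%, with 11.1%). Counted over 171 measured probe sets, 14 were at least 2-fold up on the old array (8.19%, with 14.2% of all probe sets) and 16 on the young (9.36%, with 10.6%). Of 55 chaperone genes with mean signal 10 or more times the floor, 4 were at least 2-fold up on the old array (7.27%). On the young array 5 were (9.09%), and of all genes at this signal 11.8% and 8.02% were. Not past 2-fold, bounds included, were 83.6% of these chaperone genes and 80.2% of all genes at this signal. Without the signal limit these shares were 83.8% and 72.7%, so the gap was smaller among bright genes. With a limit of 1.5-fold, 15 were on the old side and 12 on the young, in all 27 of 80 (33.8%, with 45.7% of all genes).

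**Figure D1:**
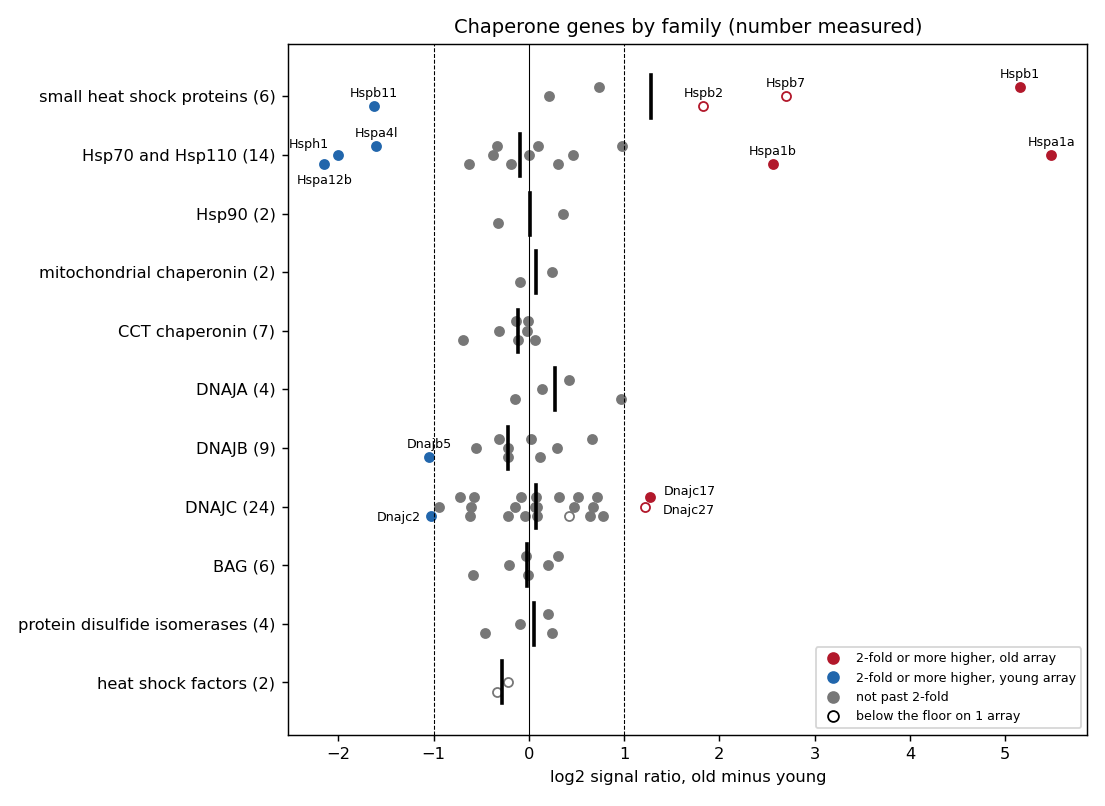
Log2 signal ratio (old minus young, x axis) of each measured chaperone gene, by family (y axis, number measured in brackets). Black bars are family medians, dashed lines mark 2-fold, and open points are below the floor on 1 array; Hspa1a (5.48) and Hspb1 (5.15) lie far to the right of every other member.

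The 15 members below the floor on both arrays were Hspb3, Hspb9, Hspa1l, Cct6b, Cct8l1, Dnajb3, Dnajb7, Dnajb8, Dnajb13, Dnajc5b, Dnajc5g, Dnajc6, Pdia2, Hsf2bp and Hsf5. Hspa1l, Hspb9, Cct6b, Hsf2bp and Hsf5 are known from testis, and Dnajc6, which encodes auxilin, from neurons. No fold is given for them.

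Hspa1a and Hspa1b encode the stress-inducible cytosolic Hsp70, which is scarce in unstressed cells and is the textbook product of the heat shock response. Hspa1a (probe set 1452388_at) read 6332 on the old array against 142 on the young, a log2 ratio of 5.48 or 44.6-fold. Hspa1b (1452318_a_at) had 19005 on the old array and 3218 on the young one, 5.91-fold, and its other probe sets were 11.4-fold and 8.47-fold higher on the old array. All 4 probe sets of the pair thus differed by 5.91-fold or more toward the old array. These genes are near-identical copies that lie beside each other, so their probes may not separate them, and the size of the difference for each copy is uncertain.

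Their promoters are shown because the pair shares 1 heat shock element and nearly all of its flanking sequence. In the RefSeq promoter table (build GRCm38.p6) the 250 bases before the transcription start of Hspa1a (chr17:34972157-34972406, minus strand) and Hspa1b (chr17:34959239-34959488, minus strand) were identical at 247 positions (98.8%). Each held 1 pair of inverted heat shock units, searched on both strands as GAANNTTC or TTCNNGAA and printed in capitals, 104 bases before the start:
Hspa1a: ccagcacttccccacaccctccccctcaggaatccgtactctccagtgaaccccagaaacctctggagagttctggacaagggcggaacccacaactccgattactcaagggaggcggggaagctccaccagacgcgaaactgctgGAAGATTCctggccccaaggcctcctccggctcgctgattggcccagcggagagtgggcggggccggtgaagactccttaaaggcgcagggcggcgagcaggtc
Hspa1b: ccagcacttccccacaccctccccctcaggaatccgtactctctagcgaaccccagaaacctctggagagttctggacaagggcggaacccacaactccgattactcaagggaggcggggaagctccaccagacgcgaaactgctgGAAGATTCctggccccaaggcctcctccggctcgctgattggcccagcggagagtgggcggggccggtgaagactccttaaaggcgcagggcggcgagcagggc

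Hspb1, the small heat shock protein of endothelium and muscle, differed by nearly as much. It had 8846 on the old array against 249 on the young (1422943_a_at), a log2 ratio of 5.15 or 35.6-fold. Its second probe set read 5978 on the old array, with a young signal under the floor (at least 81.1-fold). The window before its start (chr5:135887669-135887918, plus strand) is shown because it held 2 such pairs, 117 and 97 bases before the start, again in capitals:
Hspb1: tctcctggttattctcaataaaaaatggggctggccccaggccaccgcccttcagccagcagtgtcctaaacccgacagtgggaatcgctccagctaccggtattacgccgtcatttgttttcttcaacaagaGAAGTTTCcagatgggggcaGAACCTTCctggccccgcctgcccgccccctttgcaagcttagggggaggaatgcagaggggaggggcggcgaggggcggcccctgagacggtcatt

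Hspb2, Hspb6, Hspb7 and Hspb8 had low signals. Hspb7, known from heart and muscle, had 479 on the old array and a young signal under the floor (at least 6.49-fold), and its 3 probe sets gave bounds from 0.44 to 2.70 in log2. Hspb2, a partner of a muscle kinase, had 262 on the old array and a young signal under the floor (at least 3.56-fold). Cryab, the small heat shock protein gene next to Hspb2, is outside the symbol rule and had 4120 on the old array against 4590 on the young, a log2 ratio of -0.16. Hspb6, of smooth muscle, had 213 on the old array and 128 on the young one (0.73), and Hspb8, a partner of Bag3 in autophagy, 355 and 306 (0.22, with 3 probe sets from -0.25 to 0.68).

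Hspb11 stood alone in the family on the young side, with 622 on the old array against 1918 on the young, a log2 ratio of -1.63. Despite its symbol, this gene encodes a subunit of intraflagellar transport. Over the 6 measured Hspb genes, 3 were at least 2-fold up on the old array (16.0% of all measured genes were) and 1 on the young (11.3% of all), with a median of 1.28. Hspb2 and Hspb7 were above the floor only on the old array, so their bounds could lie only on the old side. With the floor at the 25th percentile the Hspb median was 0.84. Of 10 pericyte and smooth muscle markers, 8 had at least 2-fold more signal on the old array (80.0%, with 16.0% of all genes). Acta2 (134-fold, 7.07 in log2, with a bound of 0.67 by another probe set) and Tagln (55.8-fold) led them. The summed signal of the 10 was 27007 on the old array against 491 on the young. None of the 10 was below the floor on both arrays, and all but Acta2 and Tagln had a young signal under the floor. The part of these cells in the Hspb1, Hspb2, Hspb6 and Hspb7 signals was not tested.

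**Figure D2:**
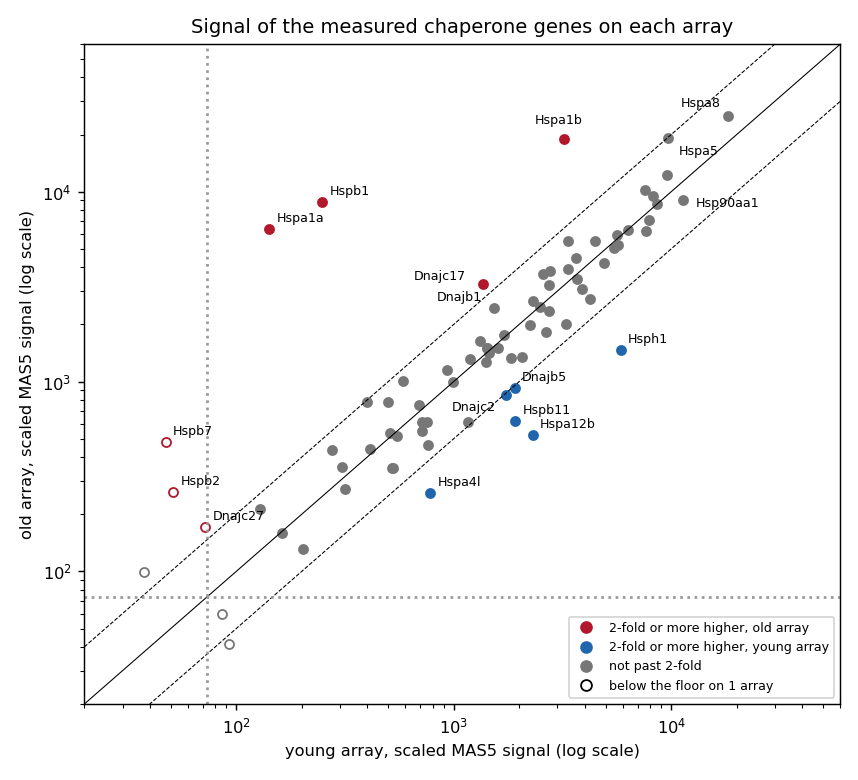
Signal on the old (y axis) and the young array (x axis), scaled MAS5 units on log scales, for the 80 measured chaperone genes. The solid line is equality, dashed lines are 2-fold and dotted lines the floor of 73.7; Hspa1a, Hspa1b and Hspb1 lie well above the band, and Hsph1, Hspa12b, Hspb11 and Hspa4l below it.

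The Hsp110 genes lay on the opposite side from inducible Hsp70. Hsph1 encodes Hsp105, a heat-inducible nucleotide exchange factor of Hsp70. It had 1463 on the old array and 5876 on the young one (1425993_a_at), a log2 ratio of -2.01, and -2.43 by its second probe set. Hspa4l, a close relative, had 257 on the old array against 782 on the young (-1.60), and its 5 probe sets ran from -1.81 to -1.51. Hspa4, the third cytosolic member, had 3067 on the old array against 3869 on the young (-0.33) by its brightest probe set, and -1.18 and -1.38 by its others. Over these 3 genes, grouped after their values were seen, 10 of 10 measured probe sets were lower on the old array. Of the 10, 9 were lower by 2-fold or more, as were 10.6% of all probe sets. Hspa4l alone holds 5 of the 10, and probe sets of the same gene are not replicates. The ER member Hyou1 had 1637 on the old array and 1320 on the young one (0.31).

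The Hsph1 window (chr5:149636337-149636586, minus strand) is shown beside those of Hspa1a and Hspb1 because it too held a pair of inverted heat shock units, 33 bases before the start, although its ratio had the opposite sign. RefSeq lists 2 starts for this gene, and the upstream one is printed:
Hsph1: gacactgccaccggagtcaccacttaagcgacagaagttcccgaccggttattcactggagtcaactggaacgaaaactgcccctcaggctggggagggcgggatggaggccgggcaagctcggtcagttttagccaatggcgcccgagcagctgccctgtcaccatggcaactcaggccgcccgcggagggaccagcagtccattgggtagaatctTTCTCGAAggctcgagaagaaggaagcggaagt

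The constitutive Hsp70 genes were within 2-fold. Hspa8, the housekeeping Hsc70 that also uncoats clathrin vesicles, had 25089 on the old array against 18217 on the young (0.46). Its probe sets ran from -0.31 to 1.63, and its ratio was -0.29 under quantile normalization and -0.09 under loess, so no direction is given. The mitochondrial Hsp70 gene Hspa9 had 2723 on the old array against 4216 on the young (-0.63), with all 4 measured probe sets below 0. Hspa5, which encodes the ER chaperone BiP, had 19073 on the old array and 9697 on the young one, a log2 ratio of 0.98, just inside 2-fold. Its other probe sets read 0.56 and 0.19.

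Hspa12b, an atypical Hsp70 enriched in endothelium and linked to vessel growth in zebrafish, had the lowest ratio of all 80 genes. It had 522 on the old array against 2308 on the young (1460371_at), a log2 ratio of -2.15, and was measured by a single probe set. Its relative Hspa12a read 441 on the old array against 411 on the young (0.10). Hspa2, Hspa13 and Hspa14 had ratios of -0.38, -0.18 and 0.00. In the Hsp70 and Hsp110 family as a whole, 2 of 14 measured genes were at least 2-fold up on the old array (14.3%, with 16.0% of all genes), 3 on the young (21.4%, with 11.3%) and 9 within 2-fold, and the SD of the ratio was 1.95, against 1.35 over all genes.

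J-domain proteins bring clients to Hsp70 and trigger its ATPase. Of 37 measured genes in the 3 classes, 2 were at least 2-fold up on the old array (5.41%, with 16.0% of all genes) and 2 on the young (5.41%, with 11.3%). Dnajb1, the heat-inducible Hsp40 that works with inducible Hsp70, had 2433 on the old array and 1536 on the young one (0.66) by its brightest probe set, and 1.25 by its second. Dnaja4, also heat-inducible, had 780 on the old array against 399 on the young (0.97, and past 2-fold at 1.06 under loess), with all 3 probe sets above 0. Dnaja1, a general partner of Hsc70, had 10174 on the old array against 7614 on the young (0.42), but its other probe sets read -0.39 and -0.26.

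The J-domain genes past 2-fold were near the limit. Dnajc17, associated with splicing, had 3270 on the old array and 1357 on the young one (1.27), with 0.63 by its second probe set. Dnajc27, a small GTPase with a J domain, had 172 on the old array and a young signal under the floor (at least 2.33-fold). Dnajb5 had 924 on the old array against 1903 on the young (-1.04), and its 3 probe sets ran from -1.28 to -0.91. Dnajc2, which works at the ribosome's exit tunnel, had 853 on the old array against 1732 on the young (-1.02), with -0.15 by its second probe set and a bound of -0.36 by another. None of these 4 kept 2-fold in every alternative tried.

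Within 2-fold, Dnajb6, which suppresses aggregation of polyglutamine proteins, had 4216 on the old array and 4921 on the young one (-0.22, probe sets from -0.36 to a bound of 0.86). Dnajc8, a splicing-associated member, had 5520 on the old array against 4441 on the young (0.31). Dnajc9, a histone chaperone known from S phase, had 609 on the old array against 1168 on the young (-0.94, and past 2-fold at -1.07 without rescaling and after scaling to equal trimmed means). On these arrays all 11 measured mitosis markers had 2-fold or more signal on the young side, where 11.3% of all genes did. Their summed signal was 2852 on the old array and 14909 on the young one, with a median log2 ratio of -2.46. Whether cell cycle activity takes part in the Dnajc9 ratio was not tested.

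The family medians were 0.28 for Dnaja, -0.22 for Dnajb and 0.08 for Dnajc. The Dnajc median was below 0 under some scalings (lowest -0.05). Over the 24 measured Dnajc genes the ratios ran from -1.02 to 1.27.

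**Figure D3:**
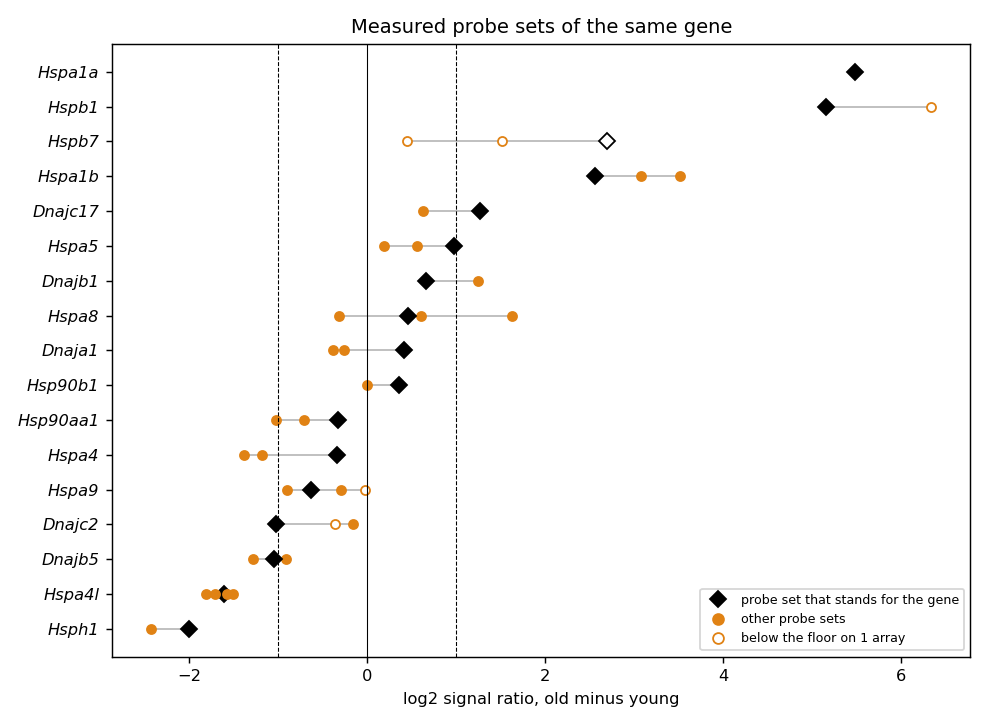
Log2 signal ratio (old minus young, x axis) of every measured probe set of selected chaperone genes (y axis), with the probe set that stands for the gene as a diamond and the others as circles, open where below the floor on 1 array. Hspb1, Hspa1a and Hspa1b lie above 2 in all their probe sets, the 5 of Hspa4l lie close together between -1.81 and -1.51, and those of Hspa8 and Dnaja1 fall on both sides of 0.

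BAG proteins release ADP from Hsp70, and Bag3 is itself a heat-inducible gene that links small heat shock proteins to autophagy. Bag3 had 2479 on the old array against 2498 on the young, a log2 ratio of -0.01, which turned positive under loess (0.01). All 6 BAG genes were measured and lay within 2-fold, from -0.58 (Bag4, an inhibitor of death receptor signalling, with 352 on the old array against 528 on the young) to 0.30 (Bag5, with 1148 and 931). Their median was -0.02, and it was above 0 under loess (0.03).

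Hsp90 proteins mature kinases and steroid receptors. Hsp90aa1, the inducible cytosolic form, had 9020 on the old array and 11314 on the young one (-0.33), and its other measured probe sets read -0.71 and -1.03. Hsp90b1, the ER form called Grp94, had 12182 on the old array against 9514 on the young (0.36), and -0.10 under quantile normalization. The measured heat shock factor genes were faint: Hsf2 was below the floor on the old array with 92.8 on the young, and Hsf4, of the lens, likewise with 86.0 on the young. Both have only a bound, so whether they were 2-fold apart is not known. With the floor at the 25th percentile Hsf2 was -1.16.

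Among members that heat is known to induce, then, ratios differed in sign and size. Hspa1a, Hspa1b and Hspb1 were higher on the old array by 2-fold or more in 6 of 6 measured probe sets, with 14.2% of all probe sets. The probes of Hspa1a and Hspa1b may not separate these genes. Dnajb1 (0.66, with 1.25 by its second probe set) and Dnaja4 (0.97, and up to 1.06 under other scalings) were on the same side near the limit, Bag3 was near 0, and Hsp90aa1 and Hsph1 were below 0. This comparison was put together after the values were seen.

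CCT is the 8-subunit cytosolic ring that folds actin and tubulin. All 7 of its measured Cct subunit genes lay within 2-fold, with a median of -0.11 and a range from -0.69 to 0.06. Their SD was 0.26, against 1.35 over all genes and 1.13 over all genes of mean signal 10 times the floor or more. Cct2 had 8566 on the old array against 8645 on the young (-0.01). It was -0.19 and -0.16 by its other probe sets, and -0.39 under quantile normalization. Cct7 had 5914 and 5660 (0.06, and below 0 under other scalings, lowest -0.17). Cct8 was the lowest, with 2020 on the old array and 3270 on the young one. Over the Cct genes 16 of 19 measured probe sets were below 0. Of the 19, 1 was at least 2-fold up on the young array (Cct4, -1.09), as were 10.6% of all probe sets. The family median was -0.36 under quantile normalization. Tcp1, the subunit gene outside the symbol rule, had 3739 on the old array against 4559 on the young (-0.29). The mitochondrial pair was as close: Hspd1, which encodes Hsp60, had 3940 on the old array against 3340 on the young (0.24), and Hspe1, which encodes its lid Hsp10, had 3460 and 3696 (-0.10).

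Hspd1 and Hspe1 lie head to head and share the region between them. The window before Hspe1 (chr1:55087898-55088147, plus strand) is shown because it held 3 overlapping pairs of heat shock units, making an uninterrupted run of 4 units in capitals, while the ratio of both genes was within 2-fold:
Hspe1: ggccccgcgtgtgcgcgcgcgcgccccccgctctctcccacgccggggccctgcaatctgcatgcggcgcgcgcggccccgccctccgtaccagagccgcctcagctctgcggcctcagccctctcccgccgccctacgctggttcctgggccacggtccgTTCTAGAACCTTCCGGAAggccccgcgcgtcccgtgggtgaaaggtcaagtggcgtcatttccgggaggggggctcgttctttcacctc

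Promoters were available for 78 of the 95 genes (98 starts). A pair of heat shock units lay in 20 of these 98 windows (20.4%) and in 12.8% of all 32851 windows of the same length. The 15 measured genes that held one had a median log2 ratio of 0.42. Of them, 4 were at least 2-fold up on the old array (26.7%, with 16.0% of all measured genes), 1 on the young (6.67%, with 11.3%) and 10 within 2-fold. A run of 3 units (GAANNTTCNNGAA or TTCNNGAANNTTC) lay in 4 windows of 3 genes, Hspd1, Hspe1 and Dnajb6, and in 0.466% of all windows. All 3 genes were within 2-fold.

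Several members of the ER lay above 0 without passing 2-fold, and others did not. Hspa5 (0.98), Dnajc3 (0.71) and Pdia6 (0.25) were above 0 under each scaling, and Hsp90b1 (0.36) under each but quantile normalization. Of other ER members, Dnajb11 (0.02) and Dnajc1 (0.07) changed sign between scalings, and Hspa13 (-0.18) was below 0 under each. Dnajc3, which encodes the co-chaperone p58IPK, had 5483 on the old array against 3342 on the young, with all 5 probe sets above 0. Pdia6 had 3244 on the old array and 2731 on the young one. Among the other disulfide isomerases, which form and rearrange disulfide bonds, Pdia3 had 9487 on the old array against 8269 on the young (0.20, and -0.18 under quantile normalization) and Pdia4 had 1507 and 1605 (-0.09). Pdia5 was the lowest at -0.46. The 4 measured isomerases had a median of 0.05, which was below 0 under some scalings (lowest -0.17).

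These 4 genes, Hspa5, Hsp90b1, Dnajc3 and Pdia6, were also the members whose windows held the ER stress response element (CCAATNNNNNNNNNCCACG, or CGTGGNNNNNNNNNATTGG on the other strand), which lay in 0.113% of all windows. The windows of Hspa5 (chr2:34771840-34772089, plus strand) and Hsp90b1 (chr10:86705445-86705694, minus strand) are shown because they hold 1 and 2 exact matches, in capitals. Dnajc10 (0.47), Hyou1 (0.31) and Dnajb9 (0.30), also of the ER, were above 0 under each scaling as well, and no match was found for them. A promoter was not available for every gene, and no match says only that these letters are not in the window.
Hspa5: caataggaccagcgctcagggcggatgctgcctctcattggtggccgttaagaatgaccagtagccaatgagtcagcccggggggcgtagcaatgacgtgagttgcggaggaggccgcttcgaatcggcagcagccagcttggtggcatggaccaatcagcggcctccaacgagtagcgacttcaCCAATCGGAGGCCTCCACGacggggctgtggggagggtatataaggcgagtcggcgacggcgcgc
Hsp90b1: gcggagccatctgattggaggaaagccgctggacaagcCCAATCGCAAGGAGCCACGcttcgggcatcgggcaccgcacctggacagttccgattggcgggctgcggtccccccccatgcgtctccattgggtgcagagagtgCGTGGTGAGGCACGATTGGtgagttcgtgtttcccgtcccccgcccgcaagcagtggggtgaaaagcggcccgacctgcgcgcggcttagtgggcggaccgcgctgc

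Genes of protein quality control outside the symbol rule were mostly within 2-fold as well. Of 28 co-chaperones and folding factors, mostly cytosolic, 0 were at least 2-fold up on the young array (11.3% of all genes were), and the median was -0.06. On the old array 4 were (14.3%, with 16.0% of all genes). These were Fkbp5, a glucocorticoid-inducible Hsp90 partner, with 1582 on the old array against 461 on the young, the ER collagen chaperone gene Serpinh1 (7983 and 2672), Fkbp4, a steroid receptor co-chaperone (717 and 322), and the prefoldin gene Pfdn2 (1428 and 673). Fkbp4 had 0.24 in log2 ratio by its lowest probe set. Of 7 measured fibroblast markers, whose collagens Serpinh1 folds, 6 were at least 2-fold up on the old array (85.7%, with 16.0% of all genes). All of the 7 but Dcn had a young signal under the floor. The summed signal of this list was 22871 on the old array and 313 on the young one. Pdgfra was below the floor on both arrays by its brightest probe set and had 90.0 on the old array by its other, with a young signal under the floor. The part of these cells in the Serpinh1 signal was not tested.

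Of 38 ER genes outside the rule, 2 were at least 2-fold up on the old array and 2 on the young (5.26% each). Of all genes, 16.0% and 11.3% were. Above 0 lay 28 of the 38 (median 0.22), and 6322 of all 12105 measured genes. Ppp1r15a, a phosphatase subunit that ends the stress block on translation, had 8998 on the old array against 616 on the young (14.6-fold). Herpud1, of ER-associated degradation, had 5350 on the old array against 1549 on the young (1.79). Asns, the asparagine synthetase gene, had 404 on the old array and 1679 on the young one (-2.05), and the pseudokinase gene Trib3 had 243 and 832 (-1.78). Asns, Trib3 and Ppp1r15a are all known targets of the stress factor Atf4, and their ratios differed in sign. None of the 31 proteasome subunits (median -0.07) and none of the 11 mitochondrial proteostasis genes (median -0.23) was 2-fold apart. The proteasome genes of largest ratio were Psmb3 (0.61) and Psmb7 (-0.60), and the mitochondrial ones were the protease genes Lonp1 (-0.47) and Htra2 (0.41).

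**Figure D4:**
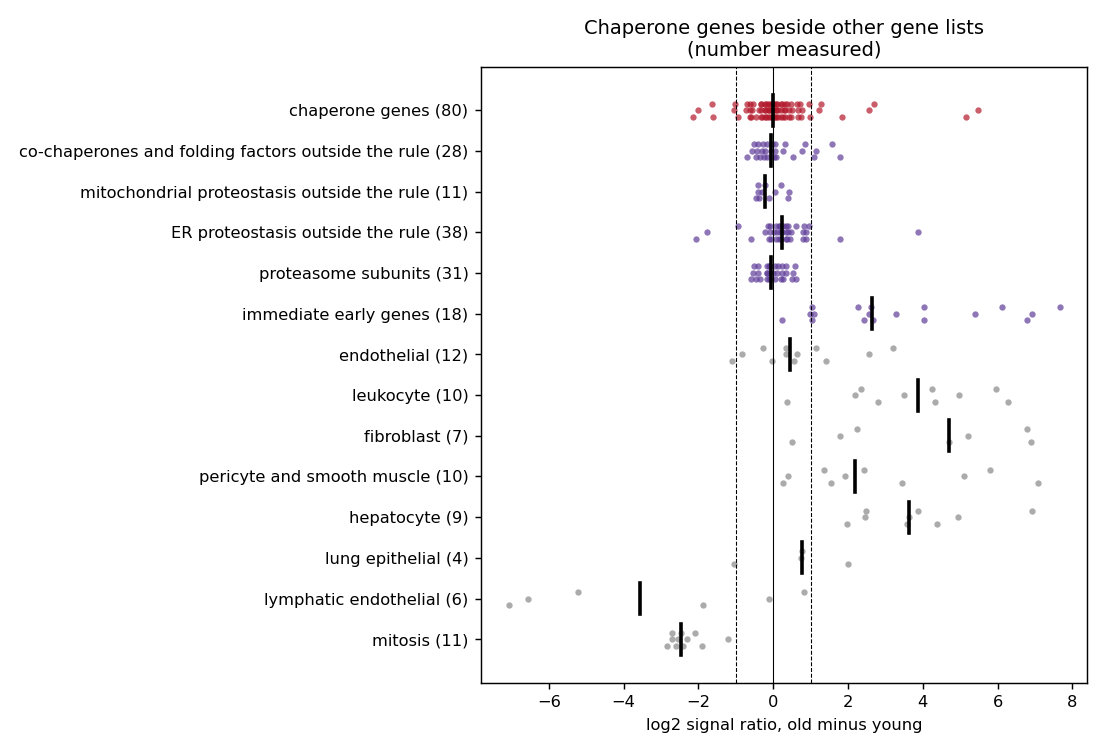
Log2 signal ratio (old minus young, x axis) of the measured genes of each list (y axis, number in brackets), with black bars for medians, dashed lines at 2-fold, and genes below the floor on 1 array drawn at their bound. Chaperone, co-chaperone, ER, mitochondrial and proteasome genes centre near 0, while immediate early genes (median 2.65) lie to the right and mitosis genes (median -2.46) to the left.

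Immediate early genes, which rise within minutes of stimulation or handling, lay on the same side as Hspa1a, Hspa1b and Hspb1. Of 18 measured, 16 were at least 2-fold up on the old array (88.9%, with 16.0% of all genes). On the young array 0 were (11.3% of all genes), and the median was 2.65. Their summed signal was 227222 on the old array against 38539 on the young. Zfp36, an RNA-decay factor, was 203-fold higher, and the transcription factor genes Egr1, Fos and Nr4a1 were 121-fold, 110-fold and at least 68.8-fold higher. Fosl1 was below the floor on both arrays, as was Egr3 by its brightest probe set, while its other had 187 on the old array with a young signal under the floor. Their relation to the inducible chaperone signals was not tested.

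Markers of several other cell types also lay on the old side. Of 10 leukocyte markers, 9 were at least 2-fold up on the old array (90.0%, with 16.0% of all genes). Csf1r (77.2-fold) and Fcer1g (at least 62.3-fold) led them, and the summed signal was 20555 on the old array against 1969 on the young. Hepatocyte markers were at least 2-fold up on the old array for 9 of 9 (16.0% of all genes were), led by Alb (at least 121-fold) and Ttr (at least 30.8-fold). All of the 9 but Apoa2 had a young signal under the floor, so their bounds could lie only on the old side. The summed signal of the 9 was 17784 on the old array and 511 on the young. The 6 lymphatic endothelial markers had a summed signal of 35059 on the old array and 54248 on the young. Of them, 4 were at least 2-fold up on the young array (66.7%, with 11.3% of all genes). These were led by Mmrn1 (-7.07, with a bound of -0.11 by another probe set) and Prox1 (at least 93.4-fold lower on the old array). Lung epithelial markers had a summed signal of 752 on the old array and 479 on the young one. Of the 4 measured, Cdh1 lay on the old side by a bound of 3.98-fold and Ager on the young side (117 on the old array against 243 on the young, -1.06), and Sftpc, Sftpa1, Scgb1a1, Aqp5 and Foxj1 were below the floor on both. The part of any of these cells in the chaperone ratios was not tested.

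Probe sets of the same gene were the only repeated measurement. Of 48 chaperone genes with several measured probe sets, 16 had probe sets of opposite sign, and over the 46 with several probe sets measured without a bound, the pooled SD of the log2 ratio between probe sets was 0.38, against 0.42 over 4514 genes of the array. Among the 13 chaperone genes past 2-fold, 8 had several measured probe sets, and in all 8 these shared their sign. These genes were picked by their brightest probe set in the same values, so shared signs are partly built in. The 3 probe sets of Hspb7 all had young signals under the floor, so their bounds could lie only on the old side. This spread describes probes and not mice.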

How the data were processed

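RNA of sorted lung vascular cells was measured on 1 old and 1 young Affymetrix array. The deposited table gives a linear MAS5 intensity for each probe set, made with GCOS 1.4 per the submitters' processing notes, and its 2% trimmed mean was 500.003 for either array. Per the labels' protocols, biotin-labelled cRNA was made from oligo-dT primed cDNA. Probe sets were named from the 2016 platform annotation, and 64 control probe sets were left out. All 95 member genes matched current RefSeq identifiers and 0 symbols changed.

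The arrays were rescaled by 1.05 (old) and 0.956 (young), since the deposited values had a median log2 ratio of -0.13 over 19764 probe sets above each array's median. The floor was the higher array median after scaling. No test was possible with 1 array per group, so genes were counted past 2-fold, and the procedure was tested on simulated data. The members and lists were chosen with earlier results of these data known. Genes named were every member past 2-fold, the brightest of each family, a fixed set of well-known members where measured, and up to 4 of each other list. Other members and Cryab were chosen after their values were seen. Where a naming rule's gene is not given, it was not analysed here.

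Alternatives were 4 other scalings, floors at the 25 and 75 percentiles, a gene's mean across probe sets, exclusion of the _x_at and _s_at kinds, an offset of 0.5 of the floor, and a 1.5-fold rule. After the data were seen, genes of mean signal 10 times the floor or more, and probe sets in place of genes, were added. Calculations ran in Python 3.11.15 with pandas 2.3.3, numpy 2.4.6, statsmodels 0.14.6 and matplotlib 3.10.9. Array number limits the precision.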

Additional observations from a re-analysis of the deposited data

How the results depend on the processing

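No paired analysis was possible because each group holds 1 array. The count of 7 chaperone genes on the old side was 4 with the floor at the 75th percentile and 4 among the 55 chaperone genes of mean signal 10 times the floor or more (7.27%, with 11.8% of such genes on the array), and the count on the young side was 5 in both. Under the 1.5-fold rule the counts were 15 and 12. In the other alternatives both counts stayed within 1.5 times of 7 and 6, and the median over chaperone genes moved by less than the probe-set SD. Values as deposited gave a median over all genes of -0.09 in place of 0.03. Hspa1a, Hspa1b, Hspb1, Hspb2, Hspb7, Hspa12b, Hspb11 and Hsph1 were past 2-fold in every alternative that measured them, with Hspa1a from 5.16 to 5.56 and Hspb1 from 4.96 to 5.89 apart from the higher floor. Under that floor 1 array of each is unmeasured, so the values are bounds (3.70 for Hspa1a, 4.18 for Hspb1, and -0.68 for Hspa4l). Hsf2 was -1.16 with the lower floor. Dnajb5 was under 2-fold with loess (-0.97) and without _x_at and _s_at probe sets (-0.91). Dnajc17 was 0.41 over all its probe sets, Dnajc27 ran from 0.37 to 1.25 and Dnajc2 from -1.15 to -0.36, a bound. Of the 80 measured members, 15 had a ratio whose sign differed between scalings, Hspa8 and Hsp90b1 among them. The causes were not tested. Signals near the floor, as for Hspb2, Hsf2, Hsf4 and Dnajc27, carry only bounds.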
